A study of Mus musculus with 3 samples.

Results

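Hepatocytes are the main cells of the liver, and in these data most of their barcodes held very few mitochondrial transcripts. A barcode stands for 1 droplet, which may hold a cell, more than 1 cell or a piece of a cell. A barcode was taken as a member if it had at least 200 genes and 500 unique molecular identifiers (UMIs, counted transcripts), and under 2% of its UMIs from mitochondrial genes. In addition, at least 5% of its UMIs had to come from 12 hepatocyte genes (Alb, Apoa1, Apoa2, Ttr, Fabp1, Serpina1a, Serpina1b, Serpina1c, Serpina1d, Serpina1e, Fgb and Ass1), with no UMI of Ptprc or Stab2 and under 50% haemoglobin. The members were thus chosen by measured values, and those values are given below as description. The rule found 1545 members among 33246 barcodes.

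Hepatocytes make most plasma proteins, the urea of the body, bile acids and the enzymes that detoxify drugs. Their enzymes are zoned, with glutamine synthetase and the cytochromes that activate paracetamol near the central vein and urea and glucose synthesis near the portal vein. In inflammation they secrete acute phase proteins such as serum amyloid A. Mitochondrial genes are transcribed inside the organelle, and a healthy hepatocyte, which is rich in mitochondria, usually gives many such transcripts.

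The livers came from mice that had received 500 mg/kg of paracetamol (APAP), a dose that injures hepatocytes, and an infusion 6 h later. The infusion was PBS, native mesenchymal stromal cells (native MSC), or mesenchymal stromal cells engineered with bispecific polyvalent peptides (engineered MSC). Liver was taken at day 4, digested and measured with droplet sequencing of transcript 3' ends. Every group is 1 mouse and 1 library, and every group received paracetamol, so no uninjured liver stands beside them. The strain, age and sex of the mice and the source of the infused cells are not given in the sources used here. The spread between animals is therefore unknown, no test could be made, and the 95% intervals below cover counting error alone. The libraries held 82247448 UMIs in 10739 barcodes (PBS), 84950721 in 11479 (native MSC) and 62564254 in 11028 (engineered MSC). Between 39 and 46 barcode sequences were shared by each pair of libraries, and 1 member barcode was shared, between native and engineered MSC.

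Members made up 26 barcodes of the PBS library, 266 of the native MSC library and 1253 of the engineered MSC library. As a share of all barcodes, that was 0.242% (exact binomial 95% interval 0.158 to 0.355) after PBS. It was 2.32% (2.05 to 2.61) after native MSC and 11.4% (10.8 to 11.97) after engineered MSC. These intervals cover counting error alone and not the spread between animals. Members were chosen by the rule's own genes, so the order of the shares is only a description of how many barcodes passed. How many hepatocytes survive digestion and straining can differ between preparations, and this cannot be told apart from the treatment here. The members held 109276, 1926872 and 4671775 UMIs in the order PBS, native MSC and engineered MSC, so each value for PBS rests on the fewest counts. The median member had 2495, 5153 and 2122 UMIs and 1151.5, 1666 and 1071 genes. After every member was thinned to 500 UMIs the median number of genes was 353.5, 339 and 359.

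The limit of 5% lay in a thinly filled range in the engineered MSC library and close to a populated one in the others. Just inside it, with 5% to 6% of UMIs from the 12 genes, were 6 barcodes after PBS, 25 after native MSC and 46 after engineered MSC. Just outside it, with 4% to 5%, were 20, 56 and 37. Over the whole range from 2% to under 5% there were 201, 404 and 145 barcodes. After PBS these barcodes thus outnumbered the members, while after engineered MSC they were few beside them. With a limit of 2%, chosen after the data were seen, the shares were 2.11%, 5.84% and 12.7%, and the order was the same.

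**Figure D1:**
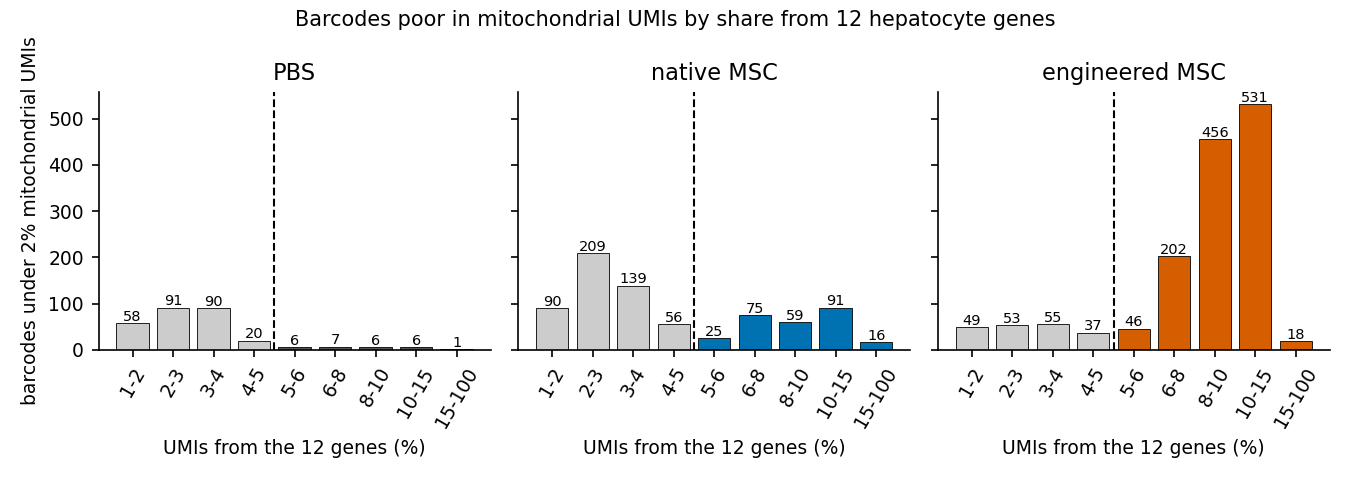
Number of barcodes under 2% mitochondrial UMIs (y axis) by the percentage of their UMIs that came from the 12 hepatocyte genes (x axis), in each library. Coloured bars right of the dashed line at 5% are members. The engineered MSC bars are highest at 10% to 15% (531 barcodes), whereas the PBS bars are highest at 2% to 3% (91 barcodes) on the left of the line.

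Levels of hepatocyte genes that the rule did not use were set beside those in lymphocyte barcodes of the same libraries, which should lack them. Bhmt, a liver enzyme of methionine metabolism, was at 879 CPM (UMIs of the gene for every 1000000 UMIs of the summed members) after PBS, 6717 after native MSC and 2557 after engineered MSC, against 3.61, 139 and 94.0 CPM in lymphocytes. Hnf4a, the transcription factor that sets hepatocyte identity, was at 64.1, 85.1 and 268 CPM in members and 1.70, 3.22 and 11.9 in lymphocytes. Members thus held hepatocyte transcripts well above the level that free RNA left in other cells. For some genes that level was not low in the engineered MSC library, where lymphocytes had 37.3% of the members' Cyp3a11 and 40.5% of their Apob. The median lymphocyte barcode drew 0.0346%, 0.124% and 0.701% of its UMIs from the 12 genes.

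Of the 5 markers that define these cells, Alb was at 9444 (95% interval 8877 to 10038), 7651 (7528 to 7775) and 7783 (7703 to 7863) CPM in the order PBS, native MSC, engineered MSC. Ttr, which carries thyroid hormone, was at 22905, 31478 and 10109 CPM, and Apoa1, the protein of high-density lipoprotein, at 18549, 12894 and 3228. Fabp1, which binds fatty acids in the cytosol, was at 9819, 8245 and 35653 CPM. Ass1, an enzyme of the urea cycle, was at 1757, 5870 and 2732 CPM. The 5% of UMIs was therefore reached with different proportions of the genes. Of these 5, Ttr was the highest after PBS and native MSC and Fabp1 after engineered MSC. All 12 genes summed to 99527 CPM after engineered MSC, so Fabp1 was not most of that sum. All of these genes belong to the rule.

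Markers of other cells were low but differed between libraries. Neutrophil markers summed to 64.1 CPM after PBS (Cxcr2, Mmp9, Csf3r and Retnlg at 0), 626 after native MSC and 47.3 after engineered MSC. In the native MSC library they were spread over 246 of 266 members. Monocyte and macrophage markers summed to 3898, 736 and 333 CPM. In PBS 1 member of 15355 UMIs, 14.1% of all PBS member UMIs, held 45 of the 55 UMIs of C1qb, a macrophage complement gene, and drew 1.88% of its UMIs from this list. T and NK cell markers were at 0 in PBS, which allows up to 27.5 CPM (3 counts), and at 8.30 and 9.20 CPM in the others. Bile duct markers summed to 1180.5 CPM after PBS, 523 after native MSC and 145 after engineered MSC, and were found in 17 of 26, 236 of 266 and 425 of 1253 members. Of the 6 genes of that list, Krt19, Krt7 and Epcam were at 0 after PBS and native MSC. Red cell genes summed to 9.15, 5777 and 2978 CPM, and markers of mesenchymal stromal cells to 9.15, 8.82 and 20.5 CPM. A marker filter left out members with any UMI of neutrophil, B and plasma, T and NK, Kupffer, endothelial, or stellate and fibroblast markers. It left 11 of 26, 15 of 266 and 586 of 1253 members. Monocyte and macrophage markers, found in 24 of 26 PBS members, were not part of this filter. Neither were bile duct, red cell and mesenchymal stromal cell markers. Results that changed direction in these remaining members are given with their values below or among the alternatives.

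The median member drew 0.162% of its UMIs from mitochondrial genes after PBS, 0.0800% after native MSC and 0.385% after engineered MSC. Among barcodes that met every other condition, those under 2% were 26 of 28 after PBS (92.9%), 266 of 284 after native MSC (93.7%) and 1253 of 1721 after engineered MSC (72.8%). Hepatocyte barcodes with 2% to 20% mitochondrial UMIs numbered 2, 12 and 423. Just inside the limit, at 1.5% to 2%, lay 3, 3 and 99 members, and just outside it, at 2% to 2.5%, lay 2, 2 and 79 barcodes. In the engineered MSC library the limit therefore passed through a continuous range of barcodes, and the members were its lower part.

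Members also differed from the barcodes that kept their mitochondrial transcripts in which nuclear genes they held. RNAs that stay in the nucleus, such as Malat1 and Neat1, were lower in native and engineered MSC members than in those barcodes. Malat1 was at 189 CPM in native MSC members against 1761 in the 12 barcodes with 2% to 20%, and at 399 against 842 in engineered MSC, where 423 barcodes form the other group. Lymphocytes had 8171, 6025 and 9080 CPM of Malat1 in the order PBS, native MSC and engineered MSC. A list of 7 nuclear RNAs held Malat1, Neat1, Meg3, Kcnq1ot1 and the protein-coding Mlxipl, Gcgr and Nlrp6. Its median log2 ratio of members to the other barcodes was -2.88 in native MSC (all genes 0.12) and -0.72 in engineered MSC (all genes -0.03). So small a list rests on few genes. In PBS, with 2 barcodes on the other side, no such value is given. PBS members held more Malat1 than the others, at 1327 CPM, or 714 without the member that held 75 of its 145 UMIs.

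Complement and coagulation genes, which encode secreted proteins, were mostly lower in members than in the mitochondria-holding barcodes. Their median was -2.07 in native MSC, with 23 of 26 lower, and -0.67 in engineered MSC, with 26 of 27 lower. C3, the central complement protein, was at 177 against 3715 CPM in native MSC and 366 against 703 in engineered MSC. Apob, a very long transcript of the lipoprotein coat, was at 76.3 against 1811 and at 342 against 726 CPM. Other secreted proteins did not share this to the same extent: acute phase genes had medians of -0.35 in native MSC (9 of 21 higher) and -0.49 in engineered MSC (5 of 21), and major urinary proteins -0.43 and -0.12. Enzymes of the cytosol went the other way, with medians of 1.40 in native MSC (18 of 19 higher) and 0.18 in engineered MSC (16 of 19 higher). Gnmt, a cytosolic methyltransferase, was at 2273 against 243 CPM in native MSC and 2796 against 2174 in engineered MSC. The genes of urea and amino acid metabolism had medians of 1.25 and 0.18. Ribosomal protein genes stayed close to all genes, at 0.11 and 0.07.

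Transcript length moved with this difference. Across 3789 nuclear genes with a length in native MSC, the Spearman correlation of length with the log2 ratio of members to mitochondria-holding barcodes was -0.20, and across 7041 genes in engineered MSC it was -0.18. Genes are not independent and share their libraries. Genes of 2500 bases or more had median log2 ratios of -0.36 and -0.22, and those under 700 bases 0.50 and 0.07. The part of length in the list values was not tested.

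**Figure D2:**
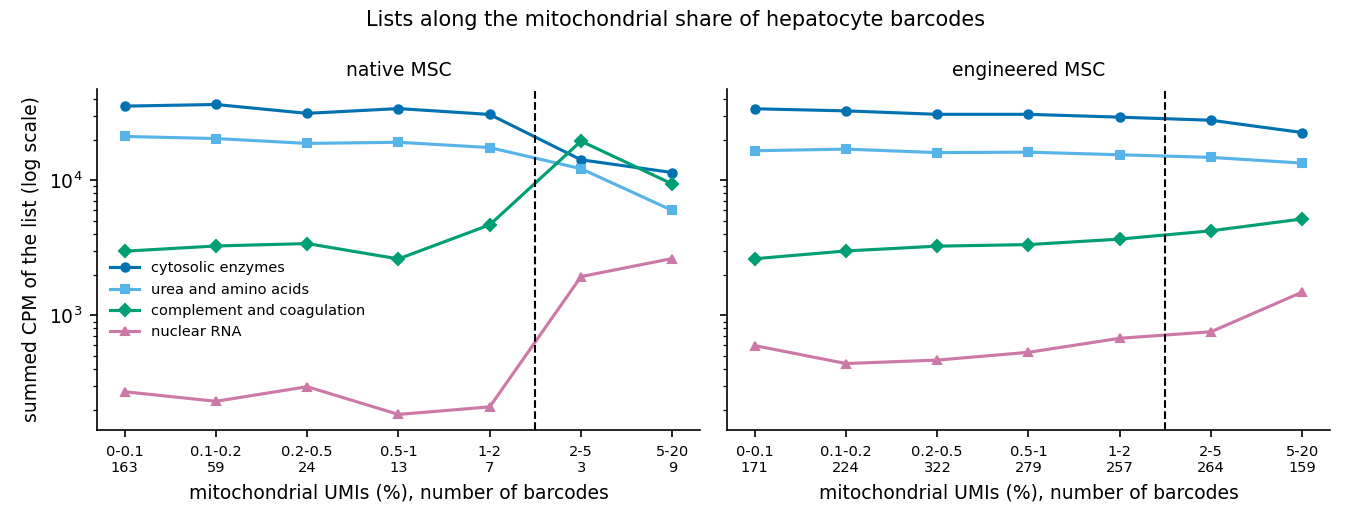
Summed CPM of 4 gene lists (log scale, y axis) in hepatocyte barcodes ordered by mitochondrial share (x axis, with the number of barcodes), for native and engineered MSC. The dashed line is the limit of 2%. In engineered MSC cytosolic enzymes went from 33805 CPM at the lowest share to 22528 at the highest, while complement and coagulation went from 2623 to 5170. In native MSC the nuclear RNAs were at 272 and 2634, and the 2 groups right of the line hold 3 and 9 barcodes.

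The 3 sets of members were then compared with each other, as levels in the summed UMIs. A gene entered a comparison where both libraries together gave it 20 or more UMIs, and it is counted as different past a CPM ratio of 2. Between engineered MSC and PBS, 9026 genes entered, and 20.3% were higher and 18.4% lower. Between native MSC and PBS, 15.6% of 6010 genes were higher and 18.5% lower. Between engineered and native MSC, 24.1% of 9667 genes were higher (2326) and 6.62% lower (640). In this last comparison the median gene was 0.41 higher on the log2 scale. With that median set to 0 the split was 1220 higher and 1161 lower. The medians of the other comparisons were 0.07 and -0.10. Counts past 2-fold in the lists below are to be read beside these shares and medians of all genes. The comparisons with PBS share their PBS members, and those with native MSC their native members, so they are not independent.

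Acute phase genes separated native from engineered MSC members. Of 21 such genes, 17 were past 2-fold lower after engineered MSC than after native MSC and none past 2-fold higher, with a median log2 ratio of -2.47. Saa1, serum amyloid A of the circulating lipoproteins, was at 1903 CPM after PBS, 10361 after native MSC and 510 after engineered MSC. It was 20.3-fold (19.5 to 21.2) lower after engineered than after native MSC. Native MSC members were thus the highest and engineered MSC members the lowest. Its neighbour Saa2 followed the same order, with 1428, 8759 and 528 CPM.

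Other acute phase genes repeated this order. Orm2, an orosomucoid that binds drugs in plasma, was at 412, 1579 and 44.95 CPM, and 35.1-fold (30.5 to 40.6) lower after engineered than after native MSC. Lcn2, which withholds iron from bacteria by binding siderophores, was at 1958, 3454 and 104 CPM, and 33.1-fold (30.2 to 36.4) lower. Against PBS, Lcn2 was 1.76-fold (1.54 to 2.03) higher after native MSC, but -0.64 on the log2 scale in members left by the marker filter above. Neutrophils, whose markers were at 626 CPM in native MSC and 64.1 in PBS members, also hold Lcn2. Apcs, the serum amyloid P component, was at 924, 1695 and 76.0 CPM. Hamp, the iron hormone hepcidin, had the smaller ratio of 3.45 (3.32 to 3.59), from 2178, 3138 and 909 CPM. Mt1, a metal-binding metallothionein, departed from this order. It was at 3212 CPM after PBS and 2931 after native MSC (ratio 0.913, 0.819 to 1.02) and at 168 CPM after engineered MSC.

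Against PBS the 2 infusions lay on opposite sides for this list. Engineered MSC members had a median of -1.90, with 16 of 21 genes past 2-fold lower and 1 higher. Native MSC members had a median of 0.53, with 5 past 2-fold higher and 2 lower. Saa1 was 3.73-fold (3.22 to 4.30) lower after engineered MSC and 5.44-fold (4.75 to 6.27) higher after native MSC than after PBS. The list's values for engineered MSC depended on where the limit of 5% was set. In the barcodes with 2% to under 5%, Saa1 was at 237 CPM after PBS, 2185 after native MSC and 2018 after engineered MSC, and the list median of engineered MSC against PBS was 1.02. Between engineered and native MSC it was -0.06 there (10 higher and 11 lower of 21). The separation of the infusions was thus found in members and not just outside the limit of 5%. With all barcodes from 2% the list median of engineered MSC against PBS was -0.25 and Saa1 was 0.59 higher on the log2 scale. Hepatocyte barcodes with 2% to 5% mitochondrial UMIs also differed between the infusions. In them the list summed to 6833 CPM in 264 engineered MSC barcodes and 63538 in 3 native MSC barcodes. At 5% to 20% these sums were 9636 in 159 barcodes and 38752 in 9. Fgb, one of the 12 genes of the rule, is itself an acute phase gene, and its part in this was not tested.

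The promoters of these genes show 1 feature that the rule did not use. The sequence TTCNNNGAA, which STAT factors such as STAT3 of interleukin 6 signalling bind, was searched on both strands in the 300 bases from 250 before to 50 after each start site. It was in 5 of 18 acute phase promoters (27.8%: Apcs, Fga, Hamp, Itih4 and Steap4), in 0 of 15 promoters of unfolded protein genes, and in 8.30% of all 32851 promoters. Sequences are those of RefSeq on GRCm38.p6, a build other than that of the counts, and 3 acute phase genes were not matched there. A match of letters is a description and shows no binding. The stretches around the match are printed for Apcs (chr1:172895250-172895304, minus strand), Hamp (chr7:30944078-30944166, minus strand) and Steap4 (chr5:7960316-7960404, plus strand), in the direction of transcription, with the match in capitals.
Apcs: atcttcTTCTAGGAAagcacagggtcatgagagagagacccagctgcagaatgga
Hamp: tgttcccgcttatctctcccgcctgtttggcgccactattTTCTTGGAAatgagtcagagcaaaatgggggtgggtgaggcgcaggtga
Steap4: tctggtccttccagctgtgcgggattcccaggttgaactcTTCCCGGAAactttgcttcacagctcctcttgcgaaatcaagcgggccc
Steap4, a metalloreductase of inflamed liver, was at 54.9, 21.8 and 10.9 CPM, so that a match did not go with 1 order of the libraries.

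**Figure D3:**
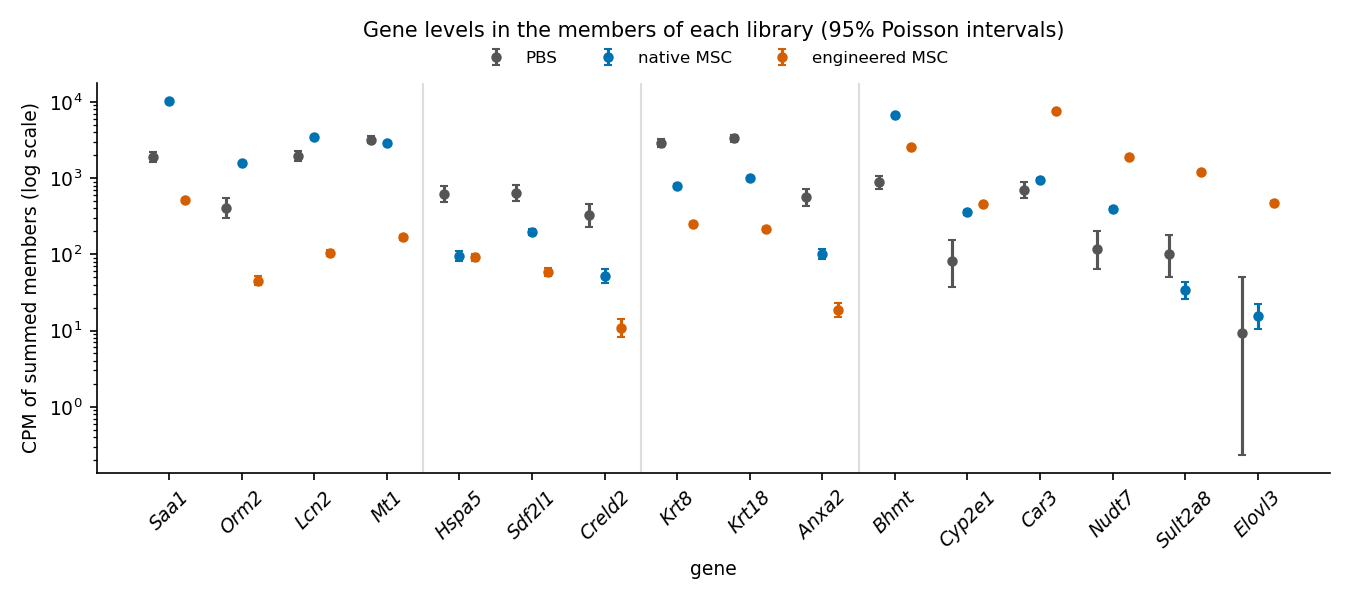
CPM of the summed members of each library (y axis, log scale) for 16 genes (x axis), with exact Poisson 95% intervals that cover counting error only. From left to right the blocks are acute phase, endoplasmic reticulum stress, keratin and annexin, and metabolic genes. Grey PBS points are the highest of the 3 for Krt8, Krt18, Anxa2, Sdf2l1 and Creld2, and orange engineered MSC points for Car3, Nudt7, Sult2a8 and Elovl3.

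Keratins and other genes of repairing hepatocytes were higher in PBS members than in both others. Krt18, the simple epithelial keratin, was at 3340, 997 and 213 CPM in PBS, native MSC and engineered MSC. It was 15.7-fold (13.9 to 17.7) lower after engineered MSC and 3.35-fold (2.99 to 3.75) lower after native MSC than after PBS. Its partner Krt8 was at 2892, 791 and 249 CPM. Anxa2, an annexin that is low in resting hepatocytes, was at 558, 102 and 18.8 CPM. These UMIs did not come from single barcodes: Krt18 was found in 22 of 26 PBS members, and without the member with most of them it was at 3162 CPM.

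Of 9 measured genes of this fetal, progenitor and repair list, 8 were past 2-fold lower than in PBS in each of the other libraries. The medians were -3.21 after engineered MSC and -1.67 after native MSC. Between engineered and native MSC, 7 of 10 were past 2-fold lower (median -1.74). Tnfrsf12a, the receptor of TWEAK that drives progenitor growth, was at 183, 57.6 and 7.28 CPM, and Spp1, osteopontin, at 760, 274 and 91.4. The fetal gene Afp was at 0 (up to 27.5 allowed), 28.5 and 5.14 CPM. In the barcodes with 2% to under 5% the order against PBS was the same, with medians of -2.17 and -1.61, while engineered against native MSC gave -0.14. Krt18 there was at 1858, 699 and 481 CPM. Spp1 and Sox9 also mark bile ducts, and macrophages express Spp1.

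Genes of the unfolded protein response, which raises chaperones when the endoplasmic reticulum is overloaded, were also highest in PBS members. Hspa5, its main chaperone BiP, was at 622, 94.5 and 91.0 CPM, and 6.84-fold (5.22 to 8.85) lower after engineered MSC than after PBS. Sdf2l1 was at 641, 197 and 59.1 CPM and Creld2 at 329, 52.4 and 10.9, and both are secretory-pathway partners of the response. Creld2 was 30.2-fold (19.1 to 47.2) lower after engineered MSC than after PBS. Hspa5 was found in 13 of 26 PBS members, Sdf2l1 in 17 and Creld2 in 13, and without the member with most of its UMIs each was still at 500, 554 and 262 CPM. Between engineered and native MSC members the Hspa5 ratio was 0.963, and its interval of 0.808 to 1.15 includes equality.

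The whole list gave medians of -2.18 for engineered MSC against PBS (13 of 14 past 2-fold lower), -1.65 for native MSC against PBS (10 of 13) and -0.37 for engineered against native MSC (6 of 14). Part of this rested on few PBS barcodes. Ddit3, the death-linked factor CHOP, was at 512 CPM in PBS, but 43 of its 56 UMIs lay in 1 member of 10957 UMIs, without which it was at 132 CPM. The same barcode held 42 of 44 UMIs of Atf3, an early stress factor, and 324 of 354 of the heat shock gene Hsp90aa1. Without it Atf3 was at 20.3 CPM, against 17.1 in native and 4.71 in engineered MSC. With each member counted alike, the list median of engineered MSC against PBS was -0.97, and with members thinned to 500 UMIs it was -0.34. In the barcodes with 2% to under 5% from the 12 genes it was -0.62 (4 of 13 past 2-fold lower, median of all genes 0.06). Native MSC against PBS gave -1.62 there (9 of 13, all genes -0.16). Engineered against native MSC turned to 0.61, with 6 of 13 past 2-fold higher and 0 lower (all genes 0.16).

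Several of these genes carry the endoplasmic reticulum stress element, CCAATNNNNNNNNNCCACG, to which ATF6 and NF-Y bind. Searched on both strands of the same promoters, it was in 4 of 15 unfolded protein promoters (26.7%: Calr, Creld2, Hsp90b1 and Hspa5), in 0 of 18 acute phase promoters and in 0.119% of all promoters (39 of 32851). The stretches around it are printed for the genes whose levels are given above, Hspa5 (chr2:34771985-34772083, plus strand) and Creld2 (chr15:88819480-88819578, plus strand). Capitals mark the element, which lies on the opposite strand in Creld2.
Hspa5: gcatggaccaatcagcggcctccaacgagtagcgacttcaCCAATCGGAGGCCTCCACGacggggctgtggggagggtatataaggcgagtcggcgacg
Creld2: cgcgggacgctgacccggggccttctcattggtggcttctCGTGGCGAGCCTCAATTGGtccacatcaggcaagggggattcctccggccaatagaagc
With the same element, Creld2 was 4.80-fold (3.40 to 6.86) lower after engineered than after native MSC, while Hspa5 had the ratio of 0.963 given above.

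Car3, Nudt7 and Acaa1b, named for the size of their ratios, were highest in engineered MSC members. Car3, a carbonic anhydrase abundant in mature hepatocytes, was at 705, 952 and 7614 CPM in the order PBS, native MSC and engineered MSC. It was 7.996-fold (7.63 to 8.38) higher after engineered than after native MSC and 10.8-fold (8.64 to 13.7) higher than after PBS. Native MSC members were 1.35-fold (1.08 to 1.72) above PBS members, and -0.14 on the log2 scale where at least 10% had to come from the 12 genes. Nudt7, a peroxisomal hydrolase of coenzyme A, was at 119, 393 and 1897 CPM. Acaa1b, a peroxisomal thiolase, was at 137, 403 and 1548 CPM.

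Several single genes named for the size of their ratio between the infusions were far higher after engineered than after native MSC. Elovl3, which elongates fatty acids, was at 9.15 (1 UMI), 15.6 and 477 CPM, and 30.6-fold (21.4 to 45.5) higher after engineered than after native MSC. Sult2a8, a liver sulfotransferase, was at 101, 33.7 and 1207 CPM. Hsd3b5, a steroid dehydrogenase, was at 0 in PBS, which allows up to 27.5 CPM, at 2.08 in native MSC and 147 in engineered MSC. The organic anion carrier Slco1a1 was at 0 (up to 27.5 allowed), 1.04 and 60.6 CPM, and the serpin Serpina12 at 174, 7.78 and 278. Of the 19 PBS UMIs of Serpina12, 12 lay in 1 member, without which it was at 71.4 CPM. Socs2, a feedback inhibitor that growth hormone induces, was at 9.15 (1 UMI), 7.78 and 112 CPM. Hsd3b5, Elovl3 and some major urinary proteins are known to be higher in male than in female mice. The sex of the animals is not given, and its part in these differences was not tested.

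The major urinary proteins, pheromone carriers that the liver secretes, had a median of 1.36 between engineered and native MSC, with 12 of 14 past 2-fold higher. Against PBS the median was 1.06 after engineered MSC (8 of 14, and 0.60 with genes at 0 set to their bound). It was -0.76 after native MSC, with 3 of 10 past 2-fold lower and 2 higher. Of all genes, 18.5% were past 2-fold lower and 15.6% higher after native MSC than after PBS. Mup20 was at 4438, 2369 and 5403 CPM and Mup3 at 5829, 1866 and 4518, so PBS members lay near engineered MSC members for the abundant members of the family. Mup1 was at 18.3 (2 UMIs), 13.5 and 246 CPM. These genes are near-identical copies, and the counting may have split or lost their reads, so single members are uncertain.

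The transcription factors that maintain hepatocytes were mostly higher after engineered MSC. Of 15, 14 were higher than after native MSC and 7 past 2-fold, with a median of 0.98 beside 0.41 for all genes. Transcripts that members lacked beside mitochondria-holding barcodes were also higher here, Malat1 2.11-fold (1.88 to 2.37) and Apob 4.48-fold (3.78 to 5.34), and their part in this was not tested. Hnf4a was 3.15-fold (2.68 to 3.73) and Cebpa, a factor of the resting state, 4.09-fold (3.504 to 4.799) higher, the latter from 91.5, 92.4 and 378 CPM. Onecut1, which acts in liver development, was at 0 (up to 27.5 allowed), 4.67 and 43.7 CPM. Against PBS the medians were 1.39 after engineered MSC (8 of 15 past 2-fold higher) and 0.13 after native MSC (1 of 12), and with genes at 0 in PBS set to their bound the former became 0.61. In the barcodes with 2% to under 5% from the 12 genes, the median between engineered and native MSC was 0.20. All genes had 0.16 there, and 1 of 14 factors was past 2-fold higher.

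Lists of bile acid and fat metabolism were compared next. Of all genes, 20.3% were past 2-fold higher for engineered MSC against PBS, 15.6% for native MSC against PBS and 24.1% between the infusions. Bile acid synthesis and transport had medians of 2.48 for engineered MSC against PBS (9 of 13 past 2-fold higher), 0.85 for native MSC against PBS (5 of 10) and 1.04 for engineered against native MSC (7 of 13). With genes at 0 in PBS set to their bound, the first became 1.33. Cyp7b1, an enzyme of the alternative bile acid route, was at 0 (up to 27.5 allowed), 7.78 and 78.6 CPM, and Baat, which conjugates bile acids, at 18.3, 96.0 and 203. Slc10a1, the carrier that takes bile acids up from blood, was highest after native MSC, at 18.3, 146 and 65.1 CPM. Fatty acid oxidation had medians of 1.30 (11 of 18), 0.72 (5 of 15) and 0.77 (9 of 19). Lipid and cholesterol synthesis had medians of 0.52 (7 of 18), 0.33 (4 of 16) and 0.04, with 10 of 18 genes higher between the infusions, and so lay below the 0.41 of all genes there.

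Genes of urea and amino acid metabolism were mostly higher after both infusions than after PBS. Of 19 genes, 10 were past 2-fold higher after engineered MSC and 9 after native MSC than after PBS, with medians of 1.11 and 0.66. Between engineered and native MSC the median was 0.03. Bhmt was 7.65-fold (6.26 to 9.45) higher after native and 2.91-fold (2.38 to 3.596) higher after engineered MSC than after PBS. Arg1, the last enzyme of the urea cycle, was at 622, 2521 and 1752 CPM, and Otc, which makes citrulline in mitochondria, at 439, 682 and 1322. Complement and coagulation genes had medians of 0.36, 0.35 and 0.64. C9, the pore-forming complement protein, stood out at 73.2, 48.8 and 366 CPM.

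Genes of the central vein, where paracetamol does its damage, were low in PBS members. The pericentral list had medians of 1.73 for engineered MSC (9 of 14 past 2-fold higher) and 1.98 for native MSC (8 of 11) against PBS, and of -0.12 between the infusions. Cyp2e1, the cytochrome that makes the toxic metabolite of paracetamol, was at 82.4, 359 and 456 CPM, from 9 UMIs in PBS. Cyp1a2, a second activating cytochrome, was at 27.5 (3 UMIs), 217 and 140 CPM. Glul, glutamine synthetase of the innermost layer, was at 36.6, 30.6 and 199 CPM, and lymphocytes held 121, 49.8 and 59.98 CPM, so PBS and native MSC members were not above that background. Rgn, a calcium-binding enzyme of vitamin C metabolism, was at 869, 2750 and 2446 CPM.

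Periportal genes had medians of 1.18, 0.35 and 0.90 in the order engineered MSC against PBS, native MSC against PBS and engineered against native MSC. In the barcodes with 2% to under 5% from the 12 genes these were 0.77, 0.82 and -0.15. The last came from 4 genes higher and 9 lower, beside a median of 0.16 for all genes. Pck1, the first enzyme of glucose synthesis, was at 64.1, 274 and 668 CPM, and Cyp2f2, the classical portal cytochrome, at 45.8, 38.4 and 156. The paracetamol metabolism list gave 0.83 (6 of 13 past 2-fold higher), 0.70 (4 of 12) and 0.27 (3 of 14). Of all genes, 20.3%, 15.6% and 24.1% were past 2-fold higher in these comparisons. The list median of 0.27 lies below the 0.41 of all genes and became -0.14 with that median set to 0. Cyp3a11 was at 311, 520 and 848 CPM and Gsta3, a glutathione transferase, at 2727, 6840 and 7513. Growth factor and cytokine receptors and their regulators gave 0.03, -0.39 and 0.69, and with genes at 0 set to their bound the first became -0.38. Egfr, the receptor of epidermal growth factor, was at 146, 10.9 and 112 CPM, with 14 of its 16 PBS UMIs in 1 member. The 81 ribosomal protein genes measured had medians of -0.23, -0.23 and -0.02, and none was past 2-fold.

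**Figure D4:**
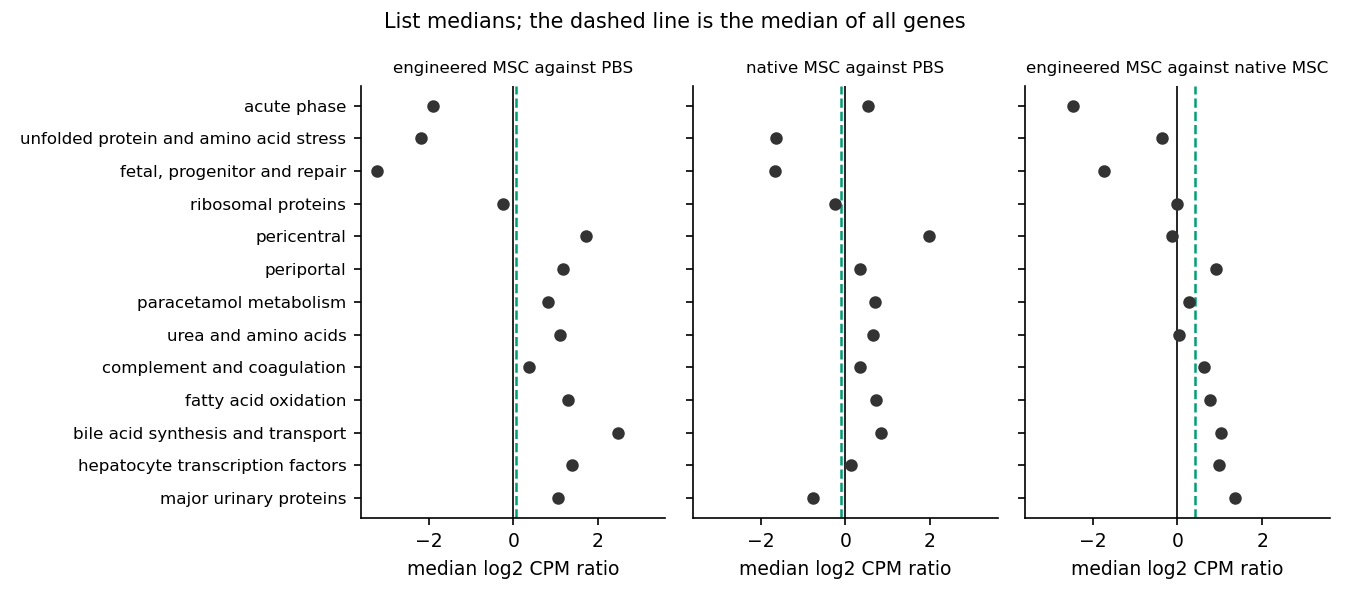
Median log2 CPM ratio (x axis) of 13 gene lists (y axis) in the 3 comparisons of members. The dashed line is the median of all genes in that comparison, at 0.07, -0.10 and 0.41. Acute phase lies left of the line for engineered MSC (-1.90 and -2.47) and right of it for native MSC against PBS (0.53).

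Within a library the members were not alike, and Saa1 and Saa2 were among the 8 most variable genes of both infusion libraries, after the haemoglobins. For this, members with at least 2000 UMIs were thinned to 2000 (15 after PBS, 223 after native MSC and 664 after engineered MSC). The median of Saa1 was 1, 13 and 0 UMIs, and the highest barcode had 11, 89 and 58. In engineered MSC, the top 33 barcodes held 83.6% of all Saa1 and 95.1% of all Lcn2. In native MSC the top 11 (also 5%) held 17.6% and 16.9%. Such a share rises when a gene has few UMIs, and for Ddit3 it was 100% in both libraries. Lcn2 had a UMI in 5.57% of the engineered MSC barcodes, so its share was largely fixed by its low count. Saa1 after engineered MSC was at 0 in most barcodes and reached 58 UMIs in the highest. Saa1 and Saa2 had a Spearman correlation over barcodes of 0.92 in native MSC and 0.24 in engineered MSC, and Mup20 and Mup3 of 0.54 and 0.57. In engineered MSC, Saa1 had a UMI in 14.5% and Saa2 in 9.34% of barcodes, against 93.3% and 81.2% in native MSC. Many counts of 0 limit such a correlation, so the values of Saa1 with Saa2 cannot be compared between the libraries. Barcodes of 1 library share their preparation, so these are descriptions.

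Car3 divided the engineered MSC members from nearly all members of the other libraries. It did not divide them from engineered MSC barcodes with 2% to 20% mitochondrial UMIs, whose values are given further below. The division was chosen after the values were seen, in barcodes with at least 2000 UMIs and without thinning. At 3 or more Car3 UMIs per 1000 there were 615 of 664 members after engineered MSC, 19 of 223 after native MSC and 0 of 15 after PBS. Under 1 per 1000 there were 13, 144 and 10. These classes differ in Car3 by construction, so the values that follow describe them only.

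The 13 engineered MSC members with little Car3 had levels near those of native MSC members. Saa1 was at 7190 CPM in them and 67.5 CPM in the 615 with much Car3, and it was at 12554 in the 144 native MSC members with little Car3. Mt1 was at 2090, 44.97 and 3046 CPM in the same 3 classes, Fabp1 at 7146, 38889 and 7378, and Elovl3 at 19.2, 508 and 10.1. In native MSC, Saa1 went from 12554 CPM under 1 Car3 UMI per 1000 to 6885 and 2603 in the higher classes. Elovl3 in the highest native class was at 50.6 CPM, below the engineered one. The 13 barcodes had a median of 6.61% of UMIs from the 12 genes, nearer the limit than the 9.93% of the 615.

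**Figure D5:**
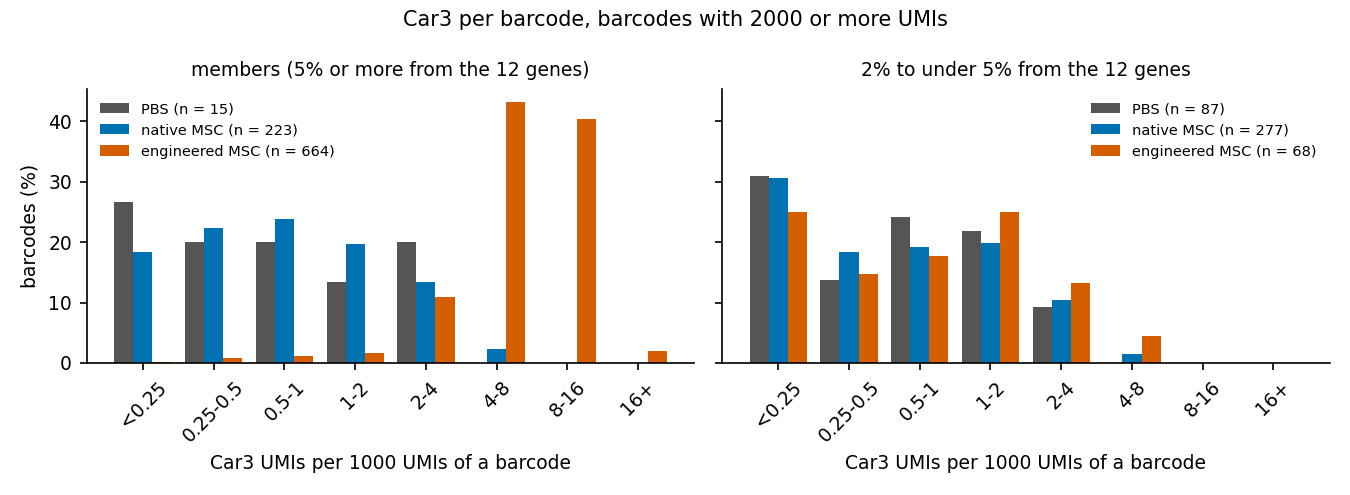
Percentage of barcodes with at least 2000 UMIs (y axis) by their Car3 UMIs per 1000 UMIs (x axis), for members (left) and for barcodes with 2% to under 5% of UMIs from the 12 genes (right). On the left the engineered MSC bars lie mostly at 4 or more and the other libraries below, and on the right the 3 libraries overlap.

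The barcodes with 2% to under 5% from the 12 genes held similar levels of Car3 in all 3 libraries, with 768, 914 and 875 CPM in PBS, native MSC and engineered MSC. Elovl3 there was at 1.37, 8.03 and 37.9 CPM and Mt1 at 2291, 3482 and 2500. The contrast of engineered MSC with the other libraries in Car3 and Mt1, like that of the acute phase list, was therefore a contrast of members and was not found just outside the limit. For Krt18 (1858, 699 and 481 CPM) and Bhmt (1206, 7811 and 4553 CPM) the order of the libraries was the same on both sides of the limit.

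A small group of engineered MSC members carried the Glul of the library. Of its Glul UMIs, 83.2% lay in the top 33 of 664 barcodes, and 11.9% of the barcodes had a Glul UMI. The 13 barcodes with at least 3 Glul UMIs of 2000, chosen after the values were seen, held a mean of 8.23 UMIs of Oat, an ornithine enzyme of the same layer, and 17.2 of Rgn. The 585 barcodes without Glul held 0.234 and 3.82. Arg1, a periportal gene, was at 0 in the 13 and at 3.94 in the 585, and Hal and Sds were at 0 against 0.554 and 0.622. In native MSC 1 barcode of 223 reached 3 Glul UMIs, and in PBS the highest of 15 had 1.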

How the data were processed

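The authors deposited count matrices with whole UMI counts for 34099 genes, 1 per library. Per the submitters' processing notes, Cell Ranger 7.1.0 and the build GRCm39 were used. Per the labels' protocols, livers were digested at 37 °C, strained and freed of red cells by lysis, and the 10x v3.1 kit for 3' ends was used. UMIs correct for amplification, and no free RNA was subtracted from the counts here.

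From the counts, members were selected by the rule above, and UMIs were summed over the members of a library and scaled to CPM. Levels have exact Poisson, shares exact binomial (Clopper-Pearson) and ratios exact conditional binomial 95% intervals. These cover counting error only. A list's value is the median log2 CPM ratio over its genes with at least 20 UMIs in the pair, with 0.5 in place of a count of 0. A count of 0 allows up to 3 counts. Doublets were not called, and members of more than 3 times the median UMIs were left out as an alternative. Lymphocyte barcodes had at least 1 Ptprc UMI, 3 lymphocyte marker UMIs and under 5% from the 12 genes. Of the gene rows, 80 shared their symbol with another row.

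The members, gene lists and alternatives were chosen with earlier results of these data known. Named genes are the 5 in each direction and comparison whose interval lies furthest from equality (at least 50 UMIs in the pair and 100 CPM in the higher library), up to 4 per list by size of ratio, and Glul, Cyp2e1, Cyp2f2, Cyp3a11, Hnf4a, Malat1 and the 12 rule genes. Rgn, C3, Spp1, Gnmt, Mup20, Hal and Itih4, Calr, Fga, Hsp90b1 and Steap4 among the promoters, and the single markers of other cells fall outside this and were chosen after their values were seen. The calculations were tested on simulated data and run with Python 3.11.15, numpy 2.4.6, scipy 1.17.1, pandas 2.3.3 and matplotlib 3.10.9.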

Additional observations from a re-analysis of the deposited data

How the results depend on the processing

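Values are log2 list or gene ratios, counts of genes past 2-fold, or shares of barcodes, with shares in the order PBS, native MSC, engineered MSC. Where 3 ratios stand together, they are engineered MSC against PBS, native MSC against PBS, and engineered against native MSC. No paired analysis was possible because each group is 1 library. Leaving out a replicate was likewise impossible. Pairs of values against PBS give engineered MSC first. The cause was not tested where none is named. A mitochondrial limit of 1% gave an engineered MSC share of 9.03%, and a minimum of 1000 UMIs one of 8.46%. With at least 10% from the 12 genes the shares were 0.0652%, 0.932% and 4.98%, 1152 genes were higher (engineered MSC against PBS) and 554 lower (native MSC against PBS). Acute phase was then -2.67, 0.13 and -2.72, unfolded protein -2.84 and -1.09 (engineered MSC against PBS and native MSC), and 3 genes reversed: Hsp90aa1 to 0.29 and 0.57 against PBS (engineered, then native MSC), Car3 to -0.14 (native MSC against PBS) and Cyp2e1 to -0.18 (engineered against native MSC). With the marker filter for neutrophil, B and plasma, T and NK, Kupffer, endothelial, and stellate cells the shares were 0.102%, 0.131% and 5.31%. Engineered MSC against PBS then gave 1144 higher, 1095 lower, acute phase -2.70, unfolded protein -2.97 and repair -4.09, and native MSC against PBS 76 higher and 57 lower. Repair was -2.15 for native MSC against PBS and -2.28 between the infusions. Hsp90aa1 (0.61, engineered MSC against PBS), Lcn2 (-0.64, native MSC against PBS), Atf3 (0.25, native MSC against PBS) and Cyp2e1 (-0.20, between the infusions) reversed. Without members over 3 times the median UMIs, unfolded protein against PBS was -1.15 after engineered MSC and Hsp90aa1 reversed to 0.27 and 0.64.

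With the median of all genes set to 0, engineered against native MSC had 1220 higher and 1161 lower genes, acute phase -2.88 and unfolded protein -0.78, and paracetamol metabolism (-0.14) and Cyp2e1 (-0.063) reversed. With each member counted alike, 3090 and 1620 genes were higher than in PBS, unfolded protein was -0.97 after engineered MSC and repair -2.49 and -1.06 against PBS, acute phase was -1.94 between the infusions, and unfolded protein there reversed to 0.044. Thinned to 500 UMIs, 627 and 274 genes were higher and 688 and 110 lower than in PBS, and 1110 higher and 315 lower between the infusions. Unfolded protein was then -0.34 and repair -3.93 against PBS after engineered MSC, acute phase 1.00 (native MSC against PBS) and -2.21 (engineered against native MSC), and unfolded protein between the infusions reversed to 0.65. A minimum of 50 UMIs left 916 lower (engineered MSC against PBS), 511 higher and 388 lower (native MSC against PBS) and 1537 higher (between the infusions), since fewer genes entered. A minimum of 1 UMI gave 7455 and 6615 lower than in PBS and 3769 higher and 2224 lower between the infusions. Unfolded protein between the infusions was -0.68 at both minimums.

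Other alternatives were chosen after seeing the data. From 2% of the 12 genes the shares were 2.11%, 5.84% and 12.7%, acute phase -0.25, 1.24 and -1.82, and unfolded protein -1.30 and -0.035 (engineered MSC against PBS and native MSC), while Saa1 (0.59, engineered MSC against PBS) and Cyp1a2 (0.21, engineered against native MSC) reversed. Without the PBS member with most Atf3 UMIs, Hsp90aa1 reversed to 0.24 and 0.53 against PBS. Where 10 UMIs were expected in each library, 372 and 173 genes were higher and 113 and 57 lower than in PBS, and unfolded protein between the infusions was -0.68. Depth limits PBS most: its members held 109276 UMIs, so a gene at 0 may reach 27.5 CPM. Across these alternatives Krt18, Krt8 and Anxa2 stayed lower after engineered MSC than after PBS, and Saa1 lower and Car3 higher after engineered than after native MSC.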
